A study of Trichoderma reesei with 24 samples.

Results

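Genes of *Trichoderma reesei* that encode subtilisin-like serine proteases (subtilases) were taken by identifier from the table of all genes, without a search for further subtilases. They were *slp1* (TRIREDRAFT_51365), *slp2* (TRIREDRAFT_123244), *slp5* (TRIREDRAFT_64719), *slp6* (TRIREDRAFT_121495, RefSeq symbol *prb1*), *slp7* (TRIREDRAFT_123865) and *slp8* (TRIREDRAFT_58698). All 6 were present among the 8755 genes of the table, and 5 of the 6 passed the filter on low values, which left 7933 genes. *slp6* did not pass, and its values are described without a call.

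RNA from mycelia of 2 strains was sequenced. WT was TU6, a uridine auxotroph of the QM9414 lineage that served as the parent, and Δ*nsd3* was 1 transformant of TU6 in which the *pyr4* marker had replaced *nsd3* (TRIREDRAFT_75672), the gene of the transcription factor Nsd3. Each strain was grown for 24 h on glycerol, for 24 h on glucose, or on cellulose for 8 h or 48 h after a glycerol preculture, with 3 libraries in each of the 8 groups. The strains therefore differed in *pyr4* as well as in *nsd3*, and the effects of the 2 changes cannot be told apart here.

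Subtilases are endopeptidases that cut proteins with a catalytic triad of aspartate, histidine and serine. They are made as inactive precursors, and a propeptide that helps the enzyme fold is removed to release the active form. In filamentous fungi the family includes secreted alkaline proteases, which break down external protein and can attack the fungus's own secreted enzymes, and vacuolar enzymes such as proteinase B, the product of *PRB1* in *Saccharomyces cerevisiae*. In *Trichoderma atroviride*, a gene named *prb1* encodes a subtilisin-like protease that is induced when the fungus attacks other fungi. Levels below are TPM, a unit of transcript abundance scaled for gene length and for the library's total, so that the 6 genes can be set beside each other.

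The table gave no read counts, and depth was estimated from the smallest steps in the TPM values. In units of 1000000 reads (M) it came to 18.2 M to 45.8 M in 23 libraries and to 238 M in replicate 3 of Δ*nsd3* on glycerol. The *nsd3* transcript stood at 32.2 to 278 TPM in the 12 WT libraries and at 0 to 2.42 TPM in the 12 Δ*nsd3* libraries, as the strain labels state. The highest Δ*nsd3* value was in replicate 2 at 48 h on cellulose, and the other 11 were at or below 0.365 TPM. The labels do not say whether the 3 libraries of a group came from separate cultures, so that p-values measure only the spread between these libraries.

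The 6 genes covered a wide range of levels. *slp2* was the most abundant in every group, with group means between 252 and 2409 TPM, followed by *slp1* with group means between 102 and 297 TPM. Group means of *slp8* ran from 2.78 to 87.1 TPM, of *slp7* from 1.62 to 20.7 TPM and of *slp5* from 12.9 to 27.3 TPM. *slp6* had the lowest mean of the 6 in every group, at 0.028 to 1.08 TPM.

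**Figure D1:**
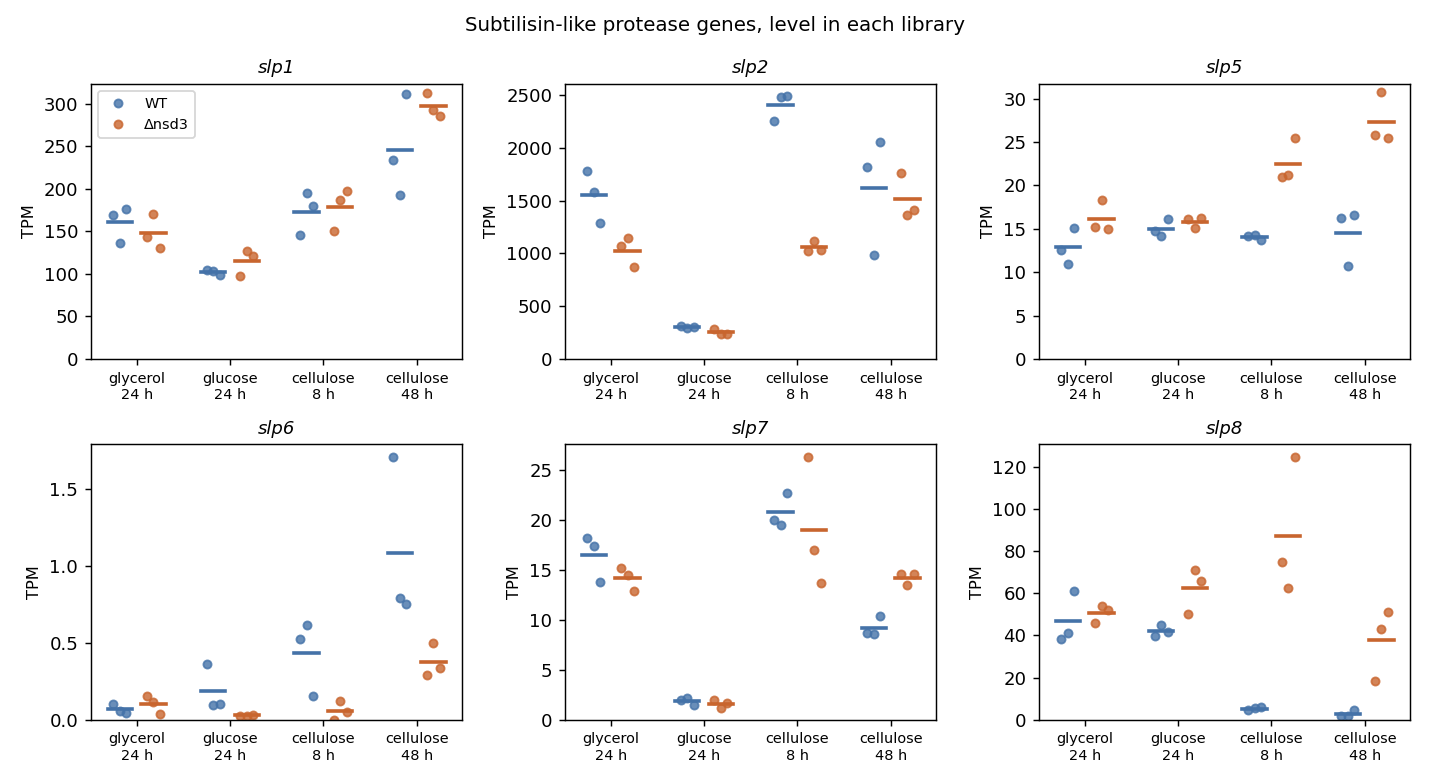
TPM of each of the 6 *slp* genes (vertical axes, linear and starting at 0, with a scale for each gene) in WT and Δ*nsd3* on glycerol, glucose and cellulose. Points are the 3 libraries of a group and bars are their means. In *slp8* the WT libraries on cellulose lie between 1.64 and 5.84 TPM and the Δ*nsd3* libraries between 18.3 and 124 TPM.

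*slp8* showed the widest strain difference. In WT its transcript was low on cellulose and high on both soluble carbon sources, whereas in Δ*nsd3* it was high in all 4 conditions. After 8 h on cellulose it stood at 4.46, 5.74 and 5.84 TPM in WT and at 74.7, 62.3 and 124 TPM in Δ*nsd3*. All 3 Δ*nsd3* libraries were above all 3 WT libraries, and replicate 3 was the highest of them. The group means were 5.34 ± 0.767 TPM and 87.1 ± 32.8 TPM (SD, n = 3), a ratio of 16.3. The log2 fold change of TPM + 1 was 3.74 (SE 0.31, adjusted p = 3.4e-09, limma with Benjamini-Hochberg adjustment over the 7933 genes). A gene was called where this log2 fold change was at least 1 in size and the adjusted p was under 0.05. At 8 h 17.2% of the genes tested were called between the strains, and *slp8* had the 27th highest fold change of the 7933.

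At 48 h on cellulose *slp8* stood at 1.97, 1.64 and 4.74 TPM in WT and at 18.3, 43.2 and 51.2 TPM in Δ*nsd3*. The groups again did not overlap, although replicate 1 of Δ*nsd3* stood well below the other 2 libraries of its group. The strains differed by 3.32 on the log2 scale (SE 0.31, adjusted p = 3.8e-08), in a comparison where 13.5% of the genes were called. The WT values rested on few reads, about 45, 58 and 170 by the estimate of depth. On glycerol the strains overlapped, with 38.1, 41.2 and 61.1 TPM in WT and 45.8, 54.1 and 52.1 TPM in Δ*nsd3*. This gave a log2 fold change of 0.14 (95% interval -0.51 to 0.79, adjusted p = 0.75), and 10.5% of the genes were called. On glucose the values were 39.8, 44.9 and 41.8 TPM in WT and 50.1, 71.1 and 65.6 TPM in Δ*nsd3*. These did not overlap, but the log2 fold change of 0.54 (95% interval -0.11 to 1.19, adjusted p = 0.19) did not pass the test, in a comparison with 9.59% of the genes called.

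Within WT, *slp8* fell from glycerol to 8 h of cellulose with a log2 fold change of -2.89 (SE 0.31, adjusted p = 1.0e-07), where 26.0% of the genes were called. It was 8.76 times as high on glycerol as at 8 h. Within Δ*nsd3* the same step gave a log2 fold change of 0.71 (adjusted p = 0.090), which was not a call, and 10.9% of the genes were called. The difference between the 2 steps was itself tested, and was 3.60 (SE 0.44, adjusted p = 1.1e-05). In that test 38.3% of the genes had an adjusted p under 0.05, and *slp8* had the 8th highest value of the 7933.

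Between 8 h and 48 h of cellulose *slp8* fell in Δ*nsd3* by 1.25 (SE 0.31, adjusted p = 0.0046), where 8.86% of the genes were called. This call rested on single libraries. It became -0.81 without replicate 1 at 48 h and -0.96 without replicate 3 at 8 h, both under the fold threshold. In WT the step was -0.83 (adjusted p = 0.037), under the fold threshold, in a comparison with 15.8% of the genes called. The adjusted p of the WT step was 0.15 without replicate 2 at 48 h and 0.14 after rescaling. Without replicate 3 at 48 h the WT step was -1.17 (adjusted p = 0.0043), past the fold threshold. The steps of the strains differed by -0.42 (adjusted p = 0.52), and 20.2% of the genes passed that test.

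In the order of group means, the highest *slp8* level was that of Δ*nsd3* at 8 h, followed by Δ*nsd3* on glucose, Δ*nsd3* on glycerol, WT on glycerol, WT on glucose and Δ*nsd3* at 48 h. Neighbours in this run overlapped, and none of the 5 pairs differed at an adjusted p under 0.05 (lowest 0.24). Then came a gap between 37.6 TPM in Δ*nsd3* at 48 h and 5.34 TPM in WT at 8 h (log2 difference 2.49, adjusted p = 9.9e-07). WT at 48 h was lowest.

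**Figure D2:**
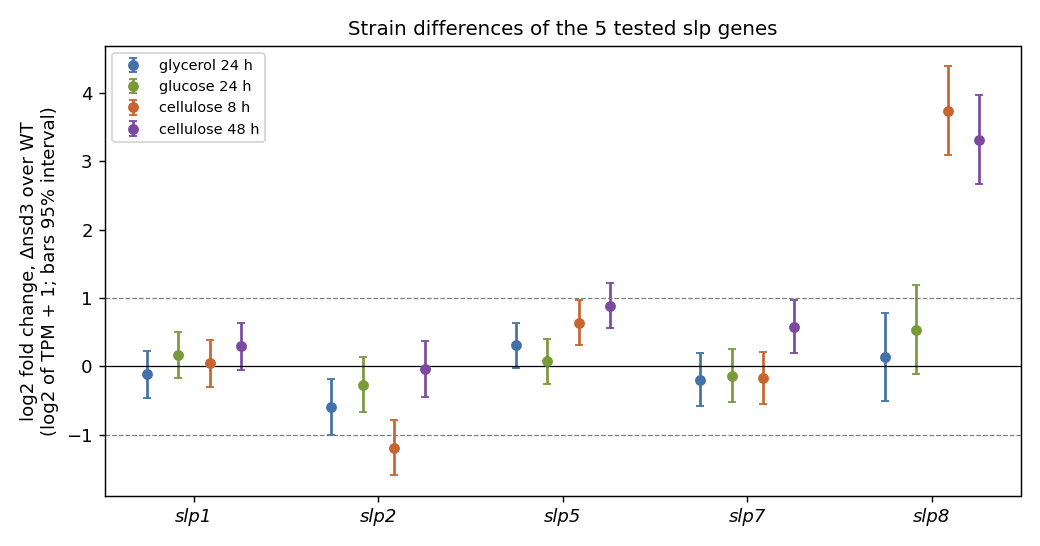
Log2 fold change of TPM + 1 in Δ*nsd3* over WT (vertical axis) for the 5 tested *slp* genes in the 4 conditions. Points are limma estimates, bars are 95% intervals, and dashed lines mark a log2 fold change of 1 in either direction. *slp8* at 3.74 and 3.32 on cellulose and *slp2* at -1.19 after 8 h are the 3 estimates beyond the lines.

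*slp2*, the most abundant of the 6, moved the other way. After 8 h on cellulose it stood at 2252, 2481 and 2493 TPM in WT and at 1025, 1114.5 and 1031 TPM in Δ*nsd3*. Every WT library was above every Δ*nsd3* library, and the 3 libraries of each strain lay close together. The group means were 2409 ± 136 TPM and 1057 ± 50.02 TPM (SD, n = 3), and Δ*nsd3* over WT gave -1.19 on the log2 scale (SE 0.19, adjusted p = 3.3e-05). Among all genes, *slp2* had the 27th highest mean TPM in WT at 8 h and the 118th highest in Δ*nsd3*.

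At 48 h *slp2* did not pass the test between the strains. The values were 1816, 984 and 2052 TPM in WT and 1765, 1366 and 1409 TPM in Δ*nsd3*, with replicate 2 of WT the lowest of the 6 libraries. It came to -0.04 on the log2 scale (95% interval -0.44 to 0.37, adjusted p = 0.89). Without that WT library it was -0.36 (adjusted p = 0.065). On glycerol *slp2* stood at 1779, 1584 and 1289.7 TPM in WT and at 1067, 1143 and 867 TPM in Δ*nsd3*. These libraries did not overlap, and the log2 fold change of -0.59 (adjusted p = 0.021, or 0.097 without replicate 3 of Δ*nsd3*) was under the fold threshold. With the libraries rescaled to a common median ratio, the glycerol value was -0.95 (adjusted p = 9.1e-05), still under that threshold. The rescaled value at 8 h was -1.04. On glucose the values were 309.8, 295 and 302 TPM in WT and 282, 234 and 239.9 TPM in Δ*nsd3*, which gave -0.27 on the log2 scale (adjusted p = 0.30).

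Both strains had more *slp2* transcript on glycerol than on glucose. Glycerol over glucose gave 2.34 on the log2 scale in WT (SE 0.19, adjusted p = 9.4e-10), where 22.1% of the genes were called, and 2.02 in Δ*nsd3* (SE 0.19, adjusted p = 1.1e-08), where 24.9% were called. The 2 steps differed by -0.33 (SE 0.28, adjusted p = 0.37), and 34.1% of the genes passed that test. After the libraries were rescaled to a common median ratio this difference was -0.87 (adjusted p = 0.0080). From glycerol to 8 h of cellulose the *slp2* step was 0.65 in WT (adjusted p = 0.0065) and 0.05 in Δ*nsd3* (adjusted p = 0.88), both under the fold threshold, and the difference of -0.59 between them did not pass the test (adjusted p = 0.089). The median of all genes over this step was 0.49 in WT, and after rescaling the WT step of *slp2* was 0.10 (adjusted p = 0.62) and the difference -0.087 (adjusted p = 0.82). From 8 h to 48 h the step was -0.64 in WT (adjusted p = 0.011) and 0.51 in Δ*nsd3* (adjusted p = 0.063). Without WT replicate 2 at 48 h the WT step was -0.32 (adjusted p = 0.11), and in a fit of only the samples compared its adjusted p was 0.15. Both steps stayed under the fold threshold with opposite signs, and their difference was 1.15 (SE 0.28, adjusted p = 0.0054).

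WT at 8 h had the highest *slp2* level of the 8 groups and stood above the next group, WT at 48 h, with no overlap (log2 difference 0.64, adjusted p = 0.011, or 0.11 without replicate 2 of WT at 48 h). WT at 48 h, WT on glycerol and Δ*nsd3* at 48 h followed at 1617, 1551 and 1513 TPM and overlapped. Δ*nsd3* at 8 h and on glycerol came next at 1057 and 1025 TPM. The 2 glucose groups were lowest, and the step from Δ*nsd3* on glycerol down to WT on glucose was the widest in the order (log2 difference 1.75, adjusted p = 1.0e-07).

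Because *slp2* made up most of the summed transcript of the 6 genes, the sum followed it. Any further subtilases of the species are not in this sum. After 8 h on cellulose the sum was 2436, 2716 and 2716 TPM in WT and 1297, 1402 and 1393 TPM in Δ*nsd3*. On glucose it was 464 ± 6.60 TPM in WT and 447 ± 1.85 TPM in Δ*nsd3* (SD, n = 3). The share of *slp2* in the sum was 91.9% ± 0.540 in WT at 8 h and 77.5% ± 2.997 in Δ*nsd3*. The share of *slp8* was 0.203% ± 0.017 in WT at 8 h and 6.38% ± 2.31 in Δ*nsd3*. At 48 h the sums overlapped between the strains, at 1891 ± 620.2 TPM in WT and 1889.7 ± 215 TPM in Δ*nsd3*.

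**Figure D3:**
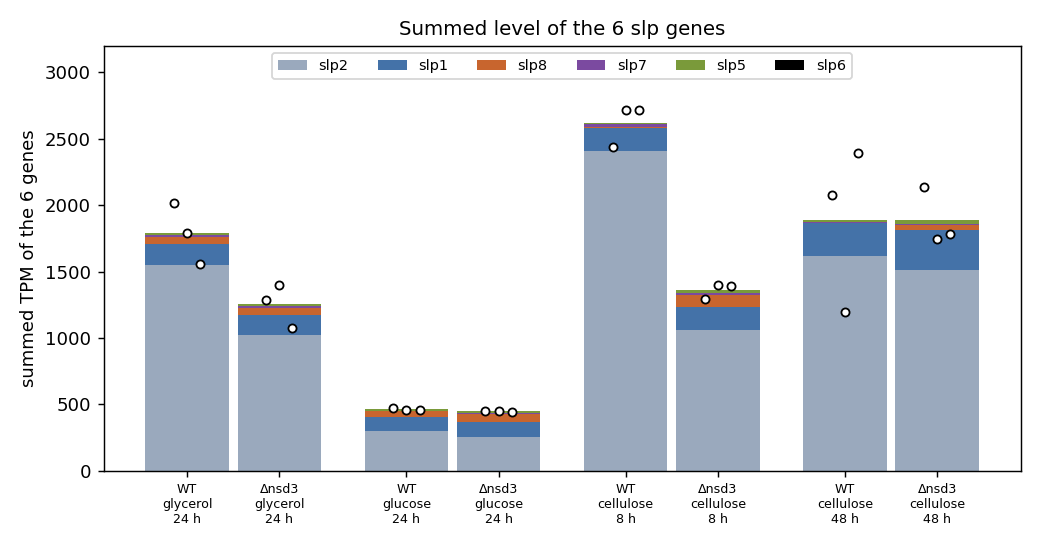
Summed TPM of the 6 *slp* genes (vertical axis, starting at 0) in WT and Δ*nsd3* in the 4 conditions. Stacked bars are the group means of each gene and open points are the sums in the 3 libraries of a group. The WT libraries at 8 h on cellulose lie at 2436 to 2716 TPM, above the Δ*nsd3* libraries at 1297 to 1402 TPM.

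*slp7* followed the carbon source in both strains. On glucose it stood at 1.96, 2.15 and 1.52 TPM in WT and at 1.96, 1.22 and 1.68 TPM in Δ*nsd3*. On glycerol it stood at 18.2, 17.4 and 13.8 TPM in WT and at 15.2, 14.5 and 12.9 TPM in Δ*nsd3*. Every glycerol library was above every glucose library. The log2 fold change of glycerol over glucose was 2.60 in WT (SE 0.19, adjusted p = 8.2e-11) and 2.54 in Δ*nsd3* (SE 0.19, adjusted p = 1.3e-10), and the 2 steps differed by -0.06 (SE 0.26, adjusted p = 0.89). *slp2* and *slp7* were the 2 members called between glycerol and glucose in each strain, beside 22.1% of all genes in WT and 24.9% in Δ*nsd3*. *slp7* on glucose lay near the pseudocount of 1, and the estimate ran from 1.64 to 3.32 in WT and from 1.54 to 3.08 in Δ*nsd3* over the alternatives, with 1.64 and 1.54 at a pseudocount of 5.

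On cellulose *slp7* stood at 20.0, 19.5 and 22.7 TPM at 8 h and at 8.65, 8.57 and 10.4 TPM at 48 h in WT. The 2 groups did not overlap, and the log2 fold change of -1.09 (SE 0.19, adjusted p = 7.2e-05) lay just past the fold threshold. It was -0.91 after rescaling and -0.86 with a pseudocount of 5, both under that threshold. In Δ*nsd3* the values were 26.3, 16.9 and 13.7 TPM at 8 h and 14.6, 13.5 and 14.6 TPM at 48 h. These groups overlapped, and replicate 1 at 8 h was the highest. The difference between the steps of the strains was 0.75 (SE 0.26, adjusted p = 0.047) and lost its call in 10 of the 12 fits that left out 1 library. Between the strains *slp7* was not called in any condition. Its fold changes were -0.19 on glycerol (adjusted p = 0.43), -0.14 on glucose (adjusted p = 0.61) and -0.17 after 8 h of cellulose (adjusted p = 0.48). At 48 h it was 0.58 (adjusted p = 0.016), under the fold threshold, with the 3 Δ*nsd3* libraries above the 3 WT libraries. Its adjusted p was 0.11 when only the samples compared were fitted and 0.10 when the replicate number was added to that fit as a block.

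In the order of *slp7* levels, the groups from WT at 8 h (20.7 TPM) through Δ*nsd3* at 8 h, WT on glycerol and Δ*nsd3* at 48 h to Δ*nsd3* on glycerol (14.2 TPM) overlapped with their neighbours. WT at 48 h followed at 9.19 TPM, below Δ*nsd3* on glycerol (log2 difference 0.58, adjusted p = 0.011). The glucose groups stood lowest, at 1.87 TPM in WT and 1.62 TPM in Δ*nsd3*, and did not differ (adjusted p = 0.61).

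*slp5* varied little between the conditions in WT and was higher in Δ*nsd3* than in WT on cellulose, by less than the fold threshold. After 8 h it stood at 14.2, 14.2 and 13.7 TPM in WT and at 20.98, 21.2 and 25.4 TPM in Δ*nsd3*. After 48 h it stood at 16.3, 10.7 and 16.6 TPM in WT and at 25.9, 30.7 and 25.5 TPM in Δ*nsd3*. The strains did not overlap at either time. The log2 fold change was 0.64 at 8 h (95% interval 0.31 to 0.97, adjusted p = 0.0024) and 0.89 at 48 h (95% interval 0.56 to 1.22, adjusted p = 0.00016). At 48 h the adjusted p was 0.045 when only the samples compared were fitted and 0.060 when the replicate number was added to that fit as a block. On glycerol the values were 12.6, 10.9 and 15.2 TPM in WT and 15.2, 18.3 and 14.9 TPM in Δ*nsd3*, which overlapped (log2 fold change 0.31, adjusted p = 0.13). On glucose they were 14.8, 14.2 and 16.1 TPM in WT and 16.2, 15.1 and 16.2 TPM in Δ*nsd3*, and also overlapped (0.07, adjusted p = 0.76). From glycerol to 8 h of cellulose the *slp5* steps of the strains differed by 0.33, which did not pass the test (adjusted p = 0.24). After rescaling this difference was 0.80 (adjusted p = 0.010). The 2 Δ*nsd3* cellulose groups were the highest of the 8, at 27.3 and 22.5 TPM, and Δ*nsd3* at 8 h lay above the next group, Δ*nsd3* on glycerol (log2 difference 0.46, adjusted p = 0.032, or 0.14 without replicate 3 of Δ*nsd3* at 8 h). The other 6 groups lay between 12.9 and 16.1 TPM and overlapped with their neighbours.

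*slp1* was not called in any comparison. On glycerol it stood at 169, 136 and 176 TPM in WT and at 144, 170.1 and 130.3 TPM in Δ*nsd3*. On glucose it stood at 104, 103 and 98.4 TPM in WT and at 98.1, 127 and 121 TPM in Δ*nsd3*. The strains overlapped in both media. After 8 h on cellulose the values were 145, 195 and 179.7 TPM in WT and 150.5, 187 and 198 TPM in Δ*nsd3*. After 48 h they were 234, 193 and 311 TPM in WT and 313, 293 and 286 TPM in Δ*nsd3*. The strains overlapped at both times, with strain fold changes on the log2 scale of -0.12 (glycerol), 0.17 (glucose), 0.04 (8 h) and 0.30 (48 h), and a lowest adjusted p of 0.15.

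*slp1* levels were higher at 48 h than at 8 h of cellulose in both strains, by less than the fold threshold. In Δ*nsd3* the step was 0.74 on the log2 scale (SE 0.17, adjusted p = 0.0018), without overlap, and 0.49 in WT (adjusted p = 0.021), where replicate 2 at 48 h lay just below the highest library at 8 h. The WT step was 0.30 (adjusted p = 0.14) without replicate 3 at 48 h and 0.37 (adjusted p = 0.12) without replicate 1 at 8 h, and its adjusted p was 0.16 when only the samples compared were fitted. WT also had more *slp1* transcript on glycerol than on glucose (log2 fold change 0.64, adjusted p = 0.0026). The same step was 0.36 in Δ*nsd3* (adjusted p = 0.070), and the 2 steps differed by -0.28 (adjusted p = 0.36), or by -0.83 after rescaling (adjusted p = 0.028). In the order of groups Δ*nsd3* and WT at 48 h were highest, at 297 and 246 TPM, and the 2 glucose groups lowest. Only the step from WT at 48 h to Δ*nsd3* at 8 h passed an adjusted p of 0.05 (log2 difference 0.44, adjusted p = 0.028), and its libraries overlapped.

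*slp6* was near the limit of detection, and 1 of its 24 values, WT replicate 1 at 48 h, reached 1 TPM. After 48 h on cellulose it stood at 1.70, 0.792 and 0.753 TPM in WT and at 0.293, 0.498 and 0.335 TPM in Δ*nsd3*. These were about 45, 32 and 31 reads in WT and about 9, 16 and 9 reads in Δ*nsd3*. Every Δ*nsd3* library was below every WT library. After 8 h the WT values were 0.527, 0.614 and 0.156 TPM, or about 32, 30 and 7 reads. In Δ*nsd3* they were 0, 0.122 and 0.050 TPM, or 0, 3 and 2 reads, and the value of 0 allows a level of up to 0.108 TPM, equal to 3 reads, from counting error alone. The strains did not overlap at 8 h either. On glucose *slp6* stood at 0.364, 0.096 and 0.104 TPM in WT and at 0.027, 0.027 and 0.030 TPM in Δ*nsd3*, the latter about 1 read in each library. On glycerol it stood at 0.103, 0.055 and 0.045 TPM in WT and at 0.153, 0.115 and 0.035 TPM in Δ*nsd3*, which overlapped.

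Without the filter on low values, the log2 fold change of TPM + 1 for *slp6* was -0.42 after 8 h of cellulose (adjusted p = 0.017) and -0.57 after 48 h (adjusted p = 0.0027). A pseudocount of 1 is larger than almost all of these values and compresses their ratio. A fit on the estimated reads (limma-voom), added after the data had been seen, gave -2.87 at 8 h (SE 0.86, adjusted p = 0.0092) and -1.45 at 48 h (SE 0.55, adjusted p = 0.037). In that fit the strain fold change was -2.06 on glucose (SE 0.94, adjusted p = 0.096) and -0.54 on glycerol (SE 0.79, adjusted p = 0.66). These estimates depend on the offset that the method adds to low counts.

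Of the 5 members tested, 2 were called between the strains after 8 h on cellulose (*slp8* higher and *slp2* lower in Δ*nsd3*) and 1 after 48 h (*slp8* higher), beside 17.2% and 13.5% of all genes tested. None of them was called on glycerol or on glucose. Over all genes the median log2 fold change between the strains was 0.29 (glycerol), -0.16 (glucose), -0.15 (8 h of cellulose) and 0.03 (48 h). Against these medians, the *slp8* values of 3.74 and 3.32 and the *slp2* value of -1.19 remained past the fold threshold when the libraries were rescaled.

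A further list of 22 protease identifiers, drawn from general knowledge of this species, was set beside the members. RefSeq and the other sources used here annotate 1 of the 22 by symbol (*pap1*, TRIREDRAFT_74156), and no role is given to the rest. The list was not screened by protein sequence and may hold further subtilases. In the 19 tested, 1 was called higher and 1 lower on glycerol, none on glucose, none higher and 3 lower at 8 h, and 2 higher and none lower at 48 h. Of all genes tested, 10.5%, 9.59%, 17.2% and 13.5% were called in these 4 comparisons. The *pap1* transcript was higher in Δ*nsd3* on glycerol (7.04 against 2.25 TPM, log2 fold change 1.32, adjusted p = 0.00090) and at 48 h (6.08 against 2.47 TPM, 1.08, adjusted p = 0.0042). TRIREDRAFT_81070 was lower on glycerol (log2 fold change -1.11, adjusted p = 2.2e-05) and at 8 h (-1.19). The others called were TRIREDRAFT_73897 (-1.45) and TRIREDRAFT_124051 (-1.35) at 8 h and TRIREDRAFT_121306 (1.28) at 48 h. TRIREDRAFT_124051 lay near the pseudocount of 1, at 0.486 TPM in Δ*nsd3* and 2.77 TPM in WT at 8 h. The median of the list was -0.26 at 8 h, beside -0.15 for all genes.

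Genes with the most similar pattern were listed by Pearson r of log2(TPM + 1) over the 24 libraries. These libraries share strains, media and scaling, and the r values are descriptions. For *slp8* they were TRIREDRAFT_1925 (r = 0.97) and TRIREDRAFT_69885 (r = 0.97). The TRIREDRAFT_1925 transcript stood at 319.6 TPM in WT and 5049 TPM in Δ*nsd3* at 8 h, a log2 difference of 3.997 (adjusted p = 2.7e-09). Its highest group mean was on glucose in Δ*nsd3*, at 5994 TPM, and that of *slp8* was at 8 h in the same strain. For *slp8* these 2 groups overlapped and did not differ (log2 difference 0.43, adjusted p = 0.24). For *slp2* they were TRIREDRAFT_55272 and TRIREDRAFT_37525 (r = 0.98 for each). Both were lower in Δ*nsd3* at 8 h, by a log2 difference of -2.15 (adjusted p = 8.6e-07) and -2.33 (adjusted p = 1.2e-06). For *slp7* they were TRIREDRAFT_74580 (r = 0.98) and TRIREDRAFT_122780 (r = 0.97). Among the members, the pair with the highest r was *slp2* and *slp7* (r = 0.91). The highest r was 0.92 for *slp1* (TRIREDRAFT_82208, then TRIREDRAFT_123649 at 0.91), 0.90 for *slp5* (TRIREDRAFT_64011, then TRIREDRAFT_64938 at 0.88) and 0.90 for *slp6* (TRIREDRAFT_109760, then TRIREDRAFT_30776 at 0.90). The r values of *slp6* rest on levels near the limit of detection, with 1 of the 24 libraries at 1 TPM or more.

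No 2 of the 6 genes were neighbours in the RefSeq gene order of the QM6a assembly v2.0. Around *slp8*, however, the 2 genes on each side were all higher in Δ*nsd3* after 8 h on cellulose. TRIREDRAFT_76620, the next gene in that order, stood at 16.4, 14.8 and 13.7 TPM in WT and at 529, 204 and 251 TPM in Δ*nsd3* (log2 fold change 4.24, adjusted p = 1.8e-10). TRIREDRAFT_76617, on the other side, stood at 82.6, 123 and 182 TPM in WT and at 408, 394 and 655 TPM in Δ*nsd3* (1.93, adjusted p = 8.5e-06). Neither gene overlapped between the strains. The next ones out, TRIREDRAFT_58525 and TRIREDRAFT_58584, had log2 fold changes of 2.47 (adjusted p = 1.8e-08) and 2.12 (adjusted p = 3.1e-06).

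At 48 h 3 of these 4 neighbours of *slp8* were called higher, and 1 of 4 was called higher on glycerol and 1 of 4 on glucose. In these comparisons 13.5%, 10.5% and 9.59% of all genes were called in either direction. Of the 18 genes tested within 10 places on either side, 9 were called higher and 2 lower at 8 h, 4 higher and none lower at 48 h, 6 higher and 1 lower on glycerol, and 3 higher and none lower on glucose. The 2 genes on each side of the other members held fewer calls at 8 h, with 2 higher of 4 tested at *slp1*, 1 of 4 at *slp2*, 0 of 4 at *slp5*, 1 of 3 at *slp6* and 2 of 4 at *slp7*, and none lower. At 48 h those of *slp7* held 3 higher of 4 tested, as many as those of *slp8*. The counts at 48 h were 1 of 4 at *slp2* and *slp5*, 0 of 4 at *slp1* and 0 of 3 at *slp6*. Within 10 places of *slp7*, 4 of 20 were called higher and 1 lower at 48 h. At 8 h the window of 10 places held 3 higher and 4 lower of 20 at *slp7*. It held 3 higher and 3 lower of 20 at *slp2*, and 4 higher and 1 lower of 15 at *slp6*. At *slp1* it held 3 higher and none lower of 19, and at *slp5* 2 higher and none lower of 17. The number of neighbours was chosen with the data at hand, and no test of clustering was run. Neighbours were places within a run of rising start positions, and scaffold labels, distances and strands were not used. The counts are to be read beside the 17.2% of all genes called at 8 h and the 13.5% called at 48 h. These shares count calls in either direction, and the share called higher alone is smaller.

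**Figure D4:**
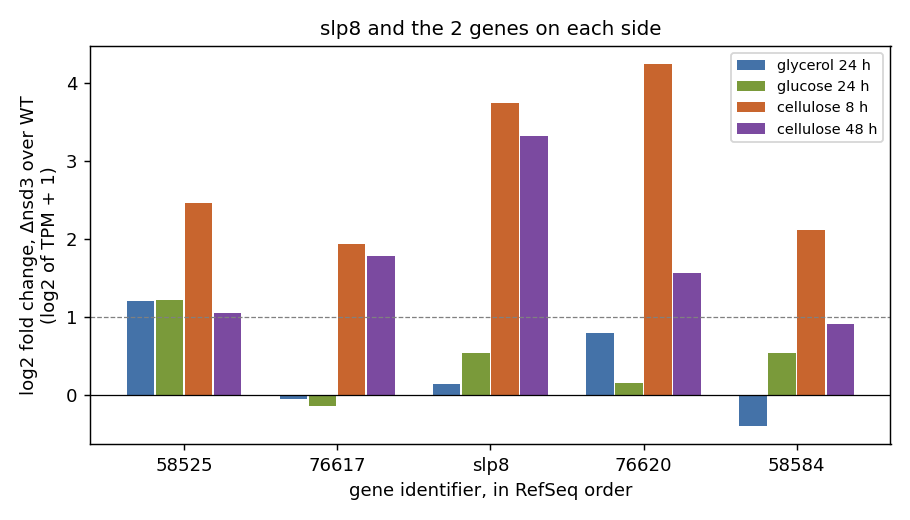
Log2 fold change of TPM + 1 in Δ*nsd3* over WT (vertical axis) for *slp8* and the 2 genes on each side in RefSeq order (horizontal axis, by identifier number) in the 4 conditions. Bars are limma estimates and the dashed line marks a log2 fold change of 1. At 8 h all 5 bars exceed 1.9, and those of *slp8* and TRIREDRAFT_76620 are the highest at 3.74 and 4.24.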

How the data were processed

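Poly(A) RNA from 24 mycelial samples was sequenced from stranded libraries. Per the paper's methods and the submitters' processing notes, the authors trimmed reads with Trim Galore 0.6.7, mapped them with HISAT2 2.2.1 to the JGI genome of *T. reesei* and counted them with featureCounts. They deposited TPM for 8755 genes. The gene length used for TPM is not given in the sources used here, and the columns of the deposited table sum to 838257 to 886039. RefSeq lengths (8750 identifiers matched) gave TPM steps worth 1 read, from which depth was estimated. At these steps 74.1% to 81.9% of low values fell within 0.1 of a whole number, against 20% for evenly spread values, so that no count test was used as the main test.

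The 7933 genes at 1 TPM or more in at least 3 libraries were tested. Log2(TPM + 1) of all 24 libraries was fitted with 1 mean per group in limma 3.58.1 (R 4.3.3, moderated with a trend, two-sided, Benjamini-Hochberg over the genes tested). A call needed an adjusted p under 0.05 and a change of 1 or more on the log2 scale, and differences between strains in a step only the former. Exact permutation of 3 against 3 libraries cannot give a p below 0.1. Intervals use the fit's residual spread. The fit was tested on simulated data. Alternatives were pseudocounts of 0.1 and 5, no filter, median-ratio rescaling, moderation without the trend, only the samples compared, a replicate block added to that fit and single libraries left out, with limma-voom on estimated reads added after the data were seen. The 6 members and the lists were chosen with earlier results of these data known. Named genes were the members, *nsd3*, the 2 genes most correlated with each member, up to 2 called genes per direction and strain comparison of the protease list (a gene named for 1 comparison is also given where it was called in another), and neighbours of *slp8* described after their values were seen.

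Replicate numbers were checked for pairing. Deviations from group means correlated between same-numbered libraries above 0.1 in all 3 pairs for the strain comparisons on glycerol (0.11 to 0.20) and at 48 h (0.17 to 0.29), and not in the others. Protein and promoter sequences were not used here, so a planned list of further subtilases and a promoter search were not run.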

Additional observations from a re-analysis of the deposited data

Results flagged for a closer look

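For 3 results the response to the carbon source differed between the strains by a test of the difference itself. Of the 5 tested members, 0 passed in the glycerol step, 1 in the 8 h step and 2 in the 48 h step. Of all genes, 34.1%, 38.3% and 20.2% passed these 3 tests, so the count of members does not set these genes apart. The step of *slp8* from glycerol to 8 h of cellulose was 3.60 higher on the log2 scale in Δ*nsd3* than in WT (adjusted p = 1.1e-05, limma). The step of *slp2* from 8 h to 48 h of cellulose was 1.15 higher in Δ*nsd3* (adjusted p = 0.0054), with steps of -0.64 in WT and 0.51 in Δ*nsd3* that each stayed under the fold threshold. This difference ran from 0.83 to 1.36 over 20 alternatives, with adjusted p values up to 0.045. The step of *slp7* over the same interval was 0.75 higher in Δ*nsd3* (adjusted p = 0.047), and its adjusted p rose above 0.05 in 16 of 20 alternatives.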

How the results depend on the processing

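Of 1000 recomputed values for the 5 tested members, 929 kept their direction and their side of the threshold. The calls of *slp8* and *slp2* between the strains, of *slp2* and *slp7* between glycerol and glucose, and of *slp8* in WT from glycerol to 8 h of cellulose held in all 14 alternatives each. The strain fold change of *slp8* ran from 3.10 to 4.16 at 8 h and from 2.38 to 3.76 at 48 h, and that of *slp2* at 8 h from -1.24 to -1.04.

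Causes of the changes below were not tested. With a pseudocount of 0.1, *slp8* from 8 h to 48 h in WT became a call (-1.06), and for *slp7* the strain difference in the glycerol step became 0.0053 and that in the 48 h step 0.81 (adjusted p = 0.066). With a pseudocount of 5, *slp7* from 8 h to 48 h in WT lost its call (-0.86). Without the filter the *slp7* difference in the 48 h step stayed at 0.75 (adjusted p = 0.052). Rescaling to a common median ratio moved the median of all genes from 0.29 to -0.01 between the strains on glycerol and from 0.49 to 0.02 between 8 h of cellulose and glycerol in WT. It turned the strain fold change on glycerol of *slp5* (-0.023) and *slp8* (-0.21), the WT step from glycerol to 8 h of *slp1* (-0.43), *slp5* (-0.38) and *slp7* (-0.19), and the *slp5* values for glycerol over glucose in Δ*nsd3* (-0.32) and its strain difference (-0.28). It took the call from *slp7* in WT from 8 h to 48 h (-0.91) and from its strain difference (0.57). It brought the strain differences in the glycerol step of *slp1* (-0.83) and *slp2* (-0.87), and that in the 8 h step of *slp5* (0.80), past the threshold. Voom on the estimated reads, chosen after seeing the data, changed the same results, to -0.027, -0.22, -0.43, -0.42, -0.21, -0.34, -0.30, -0.97, 0.60, -0.83, -0.87 and 0.88 in that order.

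When only the samples compared were fitted, the *slp2* strain difference in the 8 h step passed (-0.59, adjusted p = 0.030) and that of *slp7* in the 48 h step did not (0.75, adjusted p = 0.15). With the replicate block as well, the same 2 results changed (-0.59, adjusted p = 0.020, and 0.75, adjusted p = 0.12). The block, added to that fit, changed no member's call in the 2 comparisons where the numbers pair the libraries, and on glycerol it gave *slp2* an adjusted p of 0.0027.

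Without single libraries, the ranges were -1.53 to -0.81 for *slp8* from 8 h to 48 h in Δ*nsd3*, -1.17 to -0.61 for the same step in WT and -0.70 to 0.015 for their difference. For *slp7* they were 0.55 to 1.001 for the strain difference in the 48 h step, -0.23 to 0.22 in the 8 h step and -0.17 to 0.037 in the glycerol step, and -0.42 to 0.029 for the strain fold change at 8 h. Ranges that crossed 0 were also found for the strain fold change of *slp2* at 48 h (-0.36 to 0.17) and of *slp1* at 8 h (-0.077 to 0.16), for glycerol over glucose of *slp5* in Δ*nsd3* (-0.067 to 0.071) and *slp8* in WT (-0.087 to 0.25), for the step to 8 h of *slp2* in Δ*nsd3* (-0.064 to 0.14) and *slp1* in WT (-0.0060 to 0.23), and for the 48 h step of *slp5* in WT (-0.080 to 0.21).

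Counts of genes called also moved. With a pseudocount of 5 the strain counts fell from 832 to 465 on glycerol, from 761 to 383 on glucose and from 1067 to 711 at 48 h. In WT they fell from 2060 to 1230 (8 h over glycerol) and from 1251 to 778 (48 h over 8 h), the latter being 928 with only the samples compared and 801 with the block added to that fit. In Δ*nsd3* they fell from 1978 to 1245 (glycerol over glucose), from 865 to 541 and from 703 to 468. The counts of strain differences were 2708 in the glycerol step (4126 with only the samples compared, 4237 with the block added, 1761 rescaled, 1553 with voom), 3041 in the 8 h step (1775 rescaled, 1761 with voom) and 1601 in the 48 h step (710 with only the samples compared, 962 with the block added). Depth limits *slp6*, which had at most 45 estimated reads in a library.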
